A study of Mus musculus with 6 samples.

Results

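Intracisternal A-particle (IAP) elements are retrovirus-like repeats of the mouse genome, and their RNA was compared between Dot1l knock-out (KO) and wild-type (WT) embryonic stem cells. The members are the single IAP copies of the authors' table of transposable element (TE) copies, chosen by an element name that begins with IAP. They number 348 of the 26255 listed copies, 260 from internal parts and 88 from long terminal repeats (LTRs), and belong to 21 elements. The matching entries of the authors' subfamily table, in which all copies of an element are counted together, are 25 of 938.

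The cells were the mouse line E14, grown in serum with LIF and without feeder cells. The KO group was 3 samples of genotype Dot1L-/-, made by CRISPR/Cas9 editing, and the WT group was 3 samples of wild-type cells, all labelled day 14. Every sample shares the line and the medium. Whether the KO samples stem from 1 clone or several, and whether samples were separate cultures, is not said by the labels, so a p-value measures the spread between these samples, which may be technical. Dot1l methylates lysine 79 of histone H3 along transcribed genes.

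An IAP provirus consists of an internal part, which codes for the gag, protease and polymerase proteins, between a pair of LTRs, which hold the promoter and the polyadenylation signal. IAPE forms also carry an envelope-like gene, which most IAPs have lost. Many IAP loci are solitary LTRs, left after recombination between the LTRs of a provirus. In embryonic stem cells IAPs are known for tight silencing by DNA methylation and by H3K9 trimethylation, which Trim28 and Setdb1 bring to them through zinc finger proteins. IAPs are also among the TEs that differ most between mouse strains, and E14 comes from another strain than the reference genome to which the reads were aligned.

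Both TE tables hold the authors' own comparison and no column per sample, so the values of single samples and the depth of each library were not analysed here. An entry holds a mean normalized count over all libraries, a log2 fold change and the standard error (SE) of that change. The level of each genotype was implied from that mean and the fold change, and it carries no error of its own. Which genotype a positive value favours is not written in the tables. Positive was taken to mean more RNA in KO, because MERVL has been published as held down by Dot1l, and each direction given here rests on that choice. Dot1l RNA (chromosome 10, 80755206 to 80795461, GRCm38) had -0.16 ± 0.25 (SE) (adjusted p = 0.845, per the authors' deposited table), which does not settle the sign. Of 8 markers of embryonic stem cells, all were detected, with means of at least 5956, and 0 passed the DESeq2 test (0 at an unadjusted p under 0.05). A copy is named by its element and a copy number; the table gives no position, and neither positions nor sequences of copies were analysed here. Fewer cells with a transcript and less of it per cell cannot be told apart in these bulk samples.

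Few IAP entries passed the test, and those that did were internal parts that were higher in KO. Among the 25 IAP elements of the subfamily table, IAPEy-int rose and 0 fell at an adjusted p under 0.05 (the authors' DESeq2), where 0.641% of all subfamilies were called higher and 0.107% lower. At an unadjusted p under 0.05 the IAP elements had 1 higher and 2 lower, the latter being IAPEz-int and IAPLTR1_Mm; the shares over all subfamilies were 1.92% and 3.31%. Among the 348 single copies 2 were called higher, or 0.575%, and 0 lower, beside 0.878% higher and 0.229% lower of all listed copies. Unadjusted, 15 copies (4.31%) were higher and 23 (6.61%) lower, beside 2.88% and 1.82% of all copies.

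**Figure D1:**
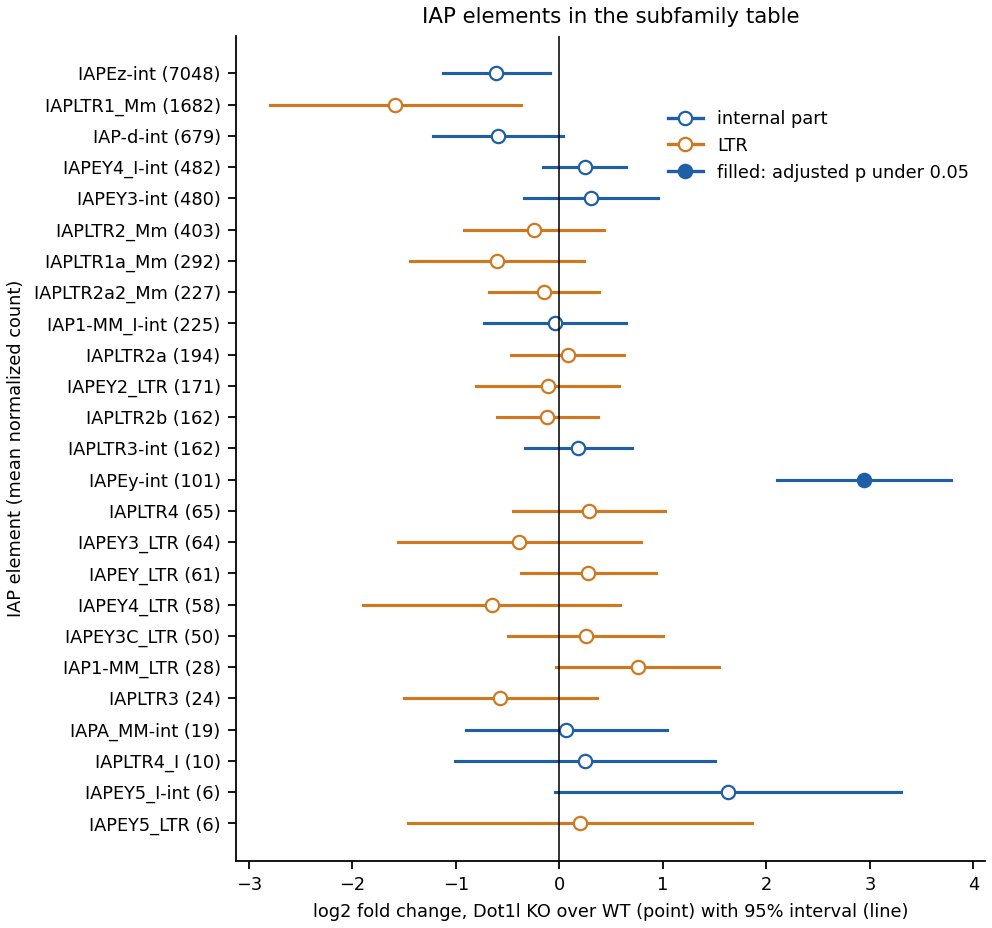
Log2 fold change of each of the 25 IAP elements in the subfamily table (point) with its 95% interval (line), ordered by mean normalized count, which stands in brackets; internal parts are blue, LTRs orange, and a filled point marks an adjusted p under 0.05. IAPEy-int at 2.95 is the filled point; the intervals of IAPEz-int and IAPLTR1_Mm lie below 0 without adjustment.

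IAPEy-int is, by its name, the internal part of an IAPE form. Its implied level was 23.3 normalized counts in WT and 179.4 in KO, a log2 fold change of 2.95 ± 0.43 with a 95% interval of 2.11 to 3.79 (adjusted p = 6.11e-09, per the authors' deposited table). This was the smallest p of the 938 subfamilies, at rank 1. MERVL-int, the internal part of the retrovirus of the 2-cell embryo, had 1.96 ± 0.38 (adjusted p = 0.000107, per the authors' deposited table), and its LTR, MT2_Mm, had 1.64 ± 0.41 with adjusted p = 0.00979. The intervals of IAPEy-int and MERVL-int, 2.11 to 3.79 and 1.22 to 2.70, overlap, and the difference between them was not tested.

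Of the single copies of IAPEy-int 5 were listed, with log2 fold changes from 2.35 to 5.81. Their shared direction is no support for that of the subfamily: no listed TE copy had a mean under 3.61, and 4 of these 5, all but IAPEy-int_dup175, had an implied WT level below that value, so they are in the table only through their KO level. Over all 348 IAP copies, 26 had a WT level and 22 a KO level below it. IAPEy-int_dup100 is the one that passed: its implied level was 0.364 in WT and 20.5 in KO, and the authors' deposited table gives 5.81 ± 1.46 (95% interval 2.95 to 8.68) with adjusted p = 0.0101. The most abundant, IAPEy-int_dup175, went from 5.70 in WT to 39.4 in KO, at 2.79 ± 0.90 (adjusted p = 0.137, per the authors' deposited table). For IAPEy-int_dup211 and IAPEy-int_dup6, the authors' deposited table has 4.96 ± 1.54 and 4.88 ± 1.55, with adjusted p of 0.0943 and 0.115. IAPEy-int_dup707 had the smallest value, 2.35 ± 1.19 (adjusted p = 1.00, per the authors' deposited table).

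The implied WT level of dup6, dup100 and dup211 was 0.364 to 0.371 normalized counts, which is on the order of 1 read over the WT libraries, so the size of their fold changes is loose. The means of the 5 copies sum to 51.0, which is 50.3% of the subfamily's mean. Whether copies and subfamilies were normalized alike is not given, so this share is approximate. Summed over the 5 copies, the implied level was 8.90 in WT and 93.1 in KO. Copy numbers of listed IAPEy-int entries reach 707, so the listed copies are a small part of those numbered.

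Markers of the 2-cell-like state were also higher in KO. Of 10 such genes 9 had a row, 7 were called higher and 0 lower, where 5.34% of all genes were called higher and 1.25% lower; their summed implied level was 31.0 in WT and 1927 in KO, and 0 of the 9 were without WT reads. Primitive endoderm markers had 6 of 8 higher with sums of 547 and 3377, germ cell markers 4 of 6 with 1493 and 5375, and fibroblast markers 4 of the 5 with a row. The fibroblast sum, 39803 in WT and 28279 in KO, is mostly Fn1, which did not pass (-0.55 ± 0.34, adjusted p = 0.454, per the authors' deposited table); the other 4 summed to 593.0 in WT and 1543 in KO. Dux, Dcn, Lum and Postn of these lists had no row. The marker lists were chosen with earlier results of these data known, so the shares called are not independent evidence. The part of these cell states in the IAPEy-int result was not tested.

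The other copy that passed was IAPLTR3-int_dup145, from the internal part that goes with IAPLTR3. Its mean was 4.80 normalized counts, and its implied WT level, 0.188, was taken as no reads. As with IAPEy-int_dup100, this level lies below the lowest listed mean of 3.61. The copy is thus in the table only through its KO level, which fixes its direction. Set against a floor of 3 reads over the WT group, it was at least 9.61-fold higher in KO, leaving out the error of the KO level (adjusted p = 0.0485, per the authors' deposited table). The neighbouring number, IAPLTR3-int_dup144, had 1.87 ± 1.30 (adjusted p = 1.00, per the authors' deposited table). Its implied WT level, 3.22, was also below 3.61, so its direction is no support. The whole IAPLTR3-int element did not follow: implied levels were 151.9 in WT and 172.6 in KO, at 0.18 ± 0.26 (adjusted p = 0.996, per the authors' deposited table). Of its 7 listed copies 2 lay below 0.

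**Figure D2:**
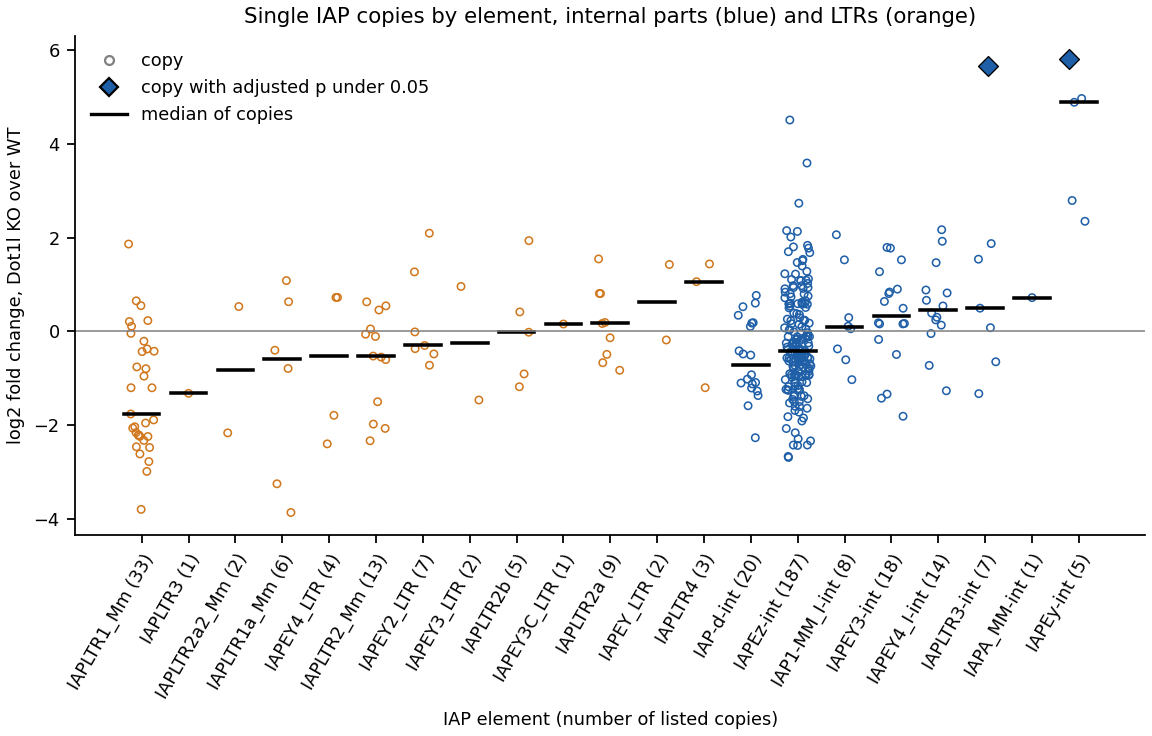
Log2 fold change of each listed IAP copy (circle) by element, with the number of copies in brackets and the median as a black line. LTRs are orange and internal parts blue. Diamonds mark the 2 copies with an adjusted p under 0.05, 1 of them plotted at a fitted value although its implied WT level was taken as no reads. The 5 IAPEy-int copies lie from 2.35 to 5.81, and the median of the 33 IAPLTR1_Mm copies is -1.76.

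IAPEz-int, the internal part of the most numerous IAP group and the form that can still move in the mouse genome, carried 55.5% of the mean count of all IAP elements. Its implied level was 8511 in WT and 5585 in KO. The authors' deposited table gives -0.61 ± 0.26 with an unadjusted p = 0.0206 and adjusted p = 0.642, so it was not called. Its 95% interval ran from -1.12 to -0.093.

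The 187 listed IAPEz-int copies, 53.7% of the IAP copies, had widely spread estimates. Their log2 fold changes ran from -2.69 to 4.51 with a median of -0.41, and 122 lay below 0. Of these copies 0 passed the DESeq2 test, beside 0.878% of all copies called higher and 0.229% lower. Unadjusted, 4 (2.14%) were higher and 8 (4.28%) lower, beside 2.88% and 1.82% of all copies. The SE of a copy was large, with a median of 1.06, beside an interquartile range of -0.93 to 0.52. How much of this spread is error was not tested.

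The 5 internal copies with the highest means are 4 of IAPEz-int and 1 of IAPEY4_I-int. IAPEz-int_dup1226, the most abundant IAP copy of all, had implied levels of 380.6 in WT and 204.0 in KO, and -0.90 ± 0.64 in the authors' deposited table. IAPEz-int_dup746 followed with 321.0 and 169.1, and IAPEz-int_dup159 with 371.6 and 115.7; the authors' deposited table has them at -0.92 ± 0.65 and -1.68 ± 0.80. IAPEz-int_dup1649 had -0.74 ± 0.70 in the authors' deposited table. All 4 IAPEz-int copies were below 0 and none passed, with adjusted p from 0.915 to 1.00. IAPEY4_I-int_dup368 had 171.1 in WT and 187.9 in KO, at 0.13 ± 0.65 (adjusted p = 1.00, per the authors' deposited table).

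At the other end of the IAPEz-int copies stood a few of low count, picked with their values in view. IAPEz-int_dup5838 had implied levels of 0.622 in WT and 14.1 in KO, at 4.51 ± 1.36 (adjusted p = 0.0759, per the authors' deposited table). For IAPEz-int_dup5642 the authors' deposited table has 3.59 ± 1.42 (adjusted p = 0.461), and for the next number, IAPEz-int_dup5643, -2.33 ± 1.16 (adjusted p = 1.00). Among the negative ones, IAPEz-int_dup2375 went from 102.4 in WT to 19.0 in KO, at -2.43 ± 0.78 (adjusted p = 0.128, per the authors' deposited table). So single copies of 1 element had estimates on either side of 0, and none of these 4 passed. The implied WT levels of IAPEz-int_dup5838 and IAPEz-int_dup5642, 0.622 and 1.03, lie below the lowest listed mean of 3.61. Both are thus listed only through their KO level, which fixes their direction.

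IAP-d-int, a further internal part, had implied levels of 816.3 in WT and 541.8 in KO, with -0.59 ± 0.32 (adjusted p = 0.955, per the authors' deposited table). Of its 20 listed copies, 19 carry numbers from 1023 to 1056, each at most 10 above the one before. Of those 19, 13 lay below 0, with a median of -0.92. The remaining one, IAP-d-int_dup410, is the most abundant of the element and had 74.0 in WT and 125.9 in KO, at 0.77 ± 0.82 in the authors' deposited table. None of the 20 had an unadjusted p under 0.05.

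The IAPEY internal parts had estimates above 0, and none of these 3 passed. IAPEY3-int had implied levels of 429.4 in WT and 531.5 in KO, and IAPEY4_I-int 440.6 and 522.6; the authors' deposited table gives 0.31 ± 0.33 and 0.25 ± 0.20, each with adjusted p = 0.996. In these elements 5 of 18 and 3 of 14 listed copies lay below 0. Of the IAPEY3-int copies, 10 have numbers from 296 to 311, and 8 of these 10 were above 0. The internal part with the lowest mean, IAPEY5_I-int at 5.74, had 1.63 ± 0.85 (adjusted p = 0.948, per the authors' deposited table).

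Of the remaining internal parts, IAP1-MM_I-int had -0.037 ± 0.35, IAPA_MM-int 0.067 ± 0.50 and IAPLTR4_I 0.25 ± 0.64 in the authors' deposited table. Centring on the median of the subfamily table, which is -0.048, turns IAP1-MM_I-int to 0.010, and centring within bins of mean count turns IAPA_MM-int to -0.12. All 3 intervals cover 0.

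**Figure D3:**
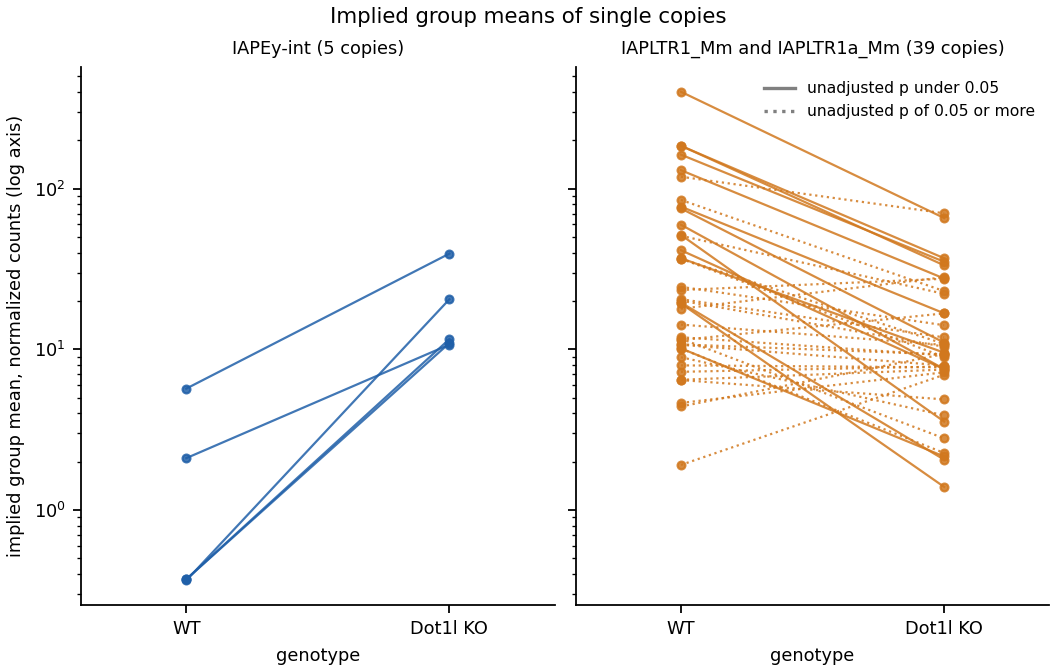
Implied group mean in normalized counts (log axis) in WT and in Dot1l KO for the 5 listed copies of IAPEy-int (left, blue) and the 39 of IAPLTR1_Mm and IAPLTR1a_Mm (right, orange); a solid line marks an unadjusted p under 0.05, and the means carry no error. The LTR copies are lower in KO in 31 of 39; of the 5 IAPEy-int copies, 4 are listed only through their KO level, which fixes their direction.

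Among the LTRs, the entries of IAPLTR1_Mm were lower in KO by the largest amounts, though without passing. IAPLTR1_Mm and IAPLTR1a_Mm are the LTRs that flank the youngest IAPEz proviruses. IAPLTR1_Mm had implied levels of 2521 in WT and 842.1 in KO, and the authors' deposited table has -1.58 ± 0.62, a 95% interval of -2.79 to -0.37, an unadjusted p = 0.0103 and adjusted p = 0.428. Its SE is large for its count: of the 95 subfamilies whose mean lay within a factor of 2 of its own, 4 had a larger SE, and their median SE was 0.20. The spread between samples was thus wide for this element, and which samples set it was not analysed here. IAPLTR1a_Mm had 351.7 in WT and 231.4 in KO, at -0.60 ± 0.43 (adjusted p = 0.996, per the authors' deposited table).

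Copy by copy, 27 of the 33 IAPLTR1_Mm entries lay below 0, with a median of -1.76, quartiles of -2.24 and -0.37 and a range of -3.79 to 1.86. None passed the DESeq2 test; without adjustment 12 were lower and 0 higher. With the 6 IAPLTR1a_Mm copies, of which 2 were lower unadjusted, 14 of 39 copies (35.9%) were lower at an unadjusted p under 0.05, beside 1.82% of all listed copies. Of the 39, 6 had a KO level and 1 a WT level below the lowest listed mean of 3.61; of the remaining 32, 25 lay below 0. Summed over the 39 copies, the implied level was 2018 in WT and 601.6 in KO. How reads that fit several copies were counted is not stated, so near-identical LTRs may share reads and these copies are not independent measurements. Outside these elements, IAPEY4_LTR_dup60 and IAPEY4_LTR_dup62 had the same mean (5.82), log2 fold change (0.73) and SE (1.04) in every digit. Both count among the 348 copies, and whether they hold the same reads was not tested.

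The 5 LTR copies with the highest means are all IAPLTR1_Mm. IAPLTR1_Mm_dup161 went from an implied 401.0 in WT to 65.7 in KO, at -2.61 ± 0.92 (adjusted p = 0.242, per the authors' deposited table). IAPLTR1_Mm_dup152 went from 184.6 to 36.9 and IAPLTR1_Mm_dup132 from 185.1 to 33.3; the authors' deposited table gives -2.32 ± 1.04 and -2.47 ± 0.92. IAPLTR1_Mm_dup1332 had 162.8 in WT and 35.1 in KO, at -2.21 ± 0.89, and IAPLTR1_Mm_dup960 118.6 and 70.3, at -0.76 ± 0.70, in the authors' deposited table. All 5 were lower in KO, with adjusted p from 0.242 to 1.00.

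Not every copy of IAPLTR1_Mm and IAPLTR1a_Mm had an estimate below 0, but 0 of the 39 were higher at an unadjusted p under 0.05. IAPLTR1_Mm_dup525 had 17.9 in WT and 28.1 in KO, at 0.65 ± 0.72 in the authors' deposited table, while the preceding number, IAPLTR1_Mm_dup524, had 59.6 and 7.54, at -2.98 ± 1.28 with adjusted p = 0.653. The lowest value of any IAP copy belonged to IAPLTR1a_Mm_dup1576, with 51.5 in WT and 3.55 in KO, at -3.86 ± 1.29 (adjusted p = 0.168, per the authors' deposited table). IAPLTR1_Mm_dup511 shows how far the error can reach: with 85.1 in WT and 23.0 in KO, the authors' deposited table has -1.88 ± 2.36. The choice of these 4 copies was made with their values in view.

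The IAPLTR2 group of LTRs lay near 0. The authors' deposited table gives IAPLTR2_Mm -0.24 ± 0.34, IAPLTR2a 0.082 ± 0.28, IAPLTR2a2_Mm -0.15 ± 0.27 and IAPLTR2b -0.12 ± 0.25, each with adjusted p = 0.996. Over their 29 listed copies the median was -0.11, and 0 passed the DESeq2 test. Unadjusted, 1 (3.45%) was higher and 0 lower, beside 2.88% and 1.82% of all copies. Their summed implied levels were 494.2 in WT and 484.1 in KO.

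Other LTRs had wide intervals that all cover 0. The IAPEY group held, in the authors' deposited table, IAPEY2_LTR at -0.11 ± 0.35, IAPEY3_LTR at -0.38 ± 0.60, IAPEY3C_LTR at 0.26 ± 0.38, IAPEY4_LTR at -0.65 ± 0.63, IAPEY5_LTR at 0.20 ± 0.85 and IAPEY_LTR at 0.28 ± 0.33. IAPLTR3 at -0.57 ± 0.48, IAPLTR4 at 0.29 ± 0.38 and IAP1-MM_LTR at 0.76 ± 0.40 complete the authors' deposited table for these LTRs. Adjusted p-values of these 9 were 0.955 or more. The internal rise of IAPEy-int thus stood beside an IAPEY_LTR level of 55.4 in WT and 67.3 in KO, which did not pass; the names do not state whether that LTR flanks the same proviruses.

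Set against each other, internal copies had a median of -0.25 and LTR copies one of -0.48, where all listed copies had 0.017. Of the internal copies 56.9% lay below 0, of the LTR copies 67.0%, and of all copies 49.1%. At an unadjusted p under 0.05, 13 of the 260 internal copies (5%) were higher and 8 (3.08%) lower. Of the 88 LTR copies 2 (2.27%) were higher and 15 (17%) lower, beside 2.88% and 1.82% of all copies. Each side leaned on 1 group of elements: without IAPEz-int the internal copies had a median of 0.19, and without IAPLTR1_Mm and IAPLTR1a_Mm the LTR copies had -0.11. So reduced, the LTR copies had 4.08% higher and 2.04% lower unadjusted. The internal copies had 12.3% and 0%, with the 5 IAPEy-int copies among the higher. Of these 5, 4 had an implied WT level below the lowest listed mean of 3.61. So did IAPLTR3-int_dup145 (0.188) and IAPEY4_I-int_dup107 (2.93), also among the higher. Such copies are listed only through their KO level, which fixes their direction, so the 12.3% is no support for a rise. No value per sample exists here on which the difference between internal parts and LTRs could be tested.

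**Figure D4:**
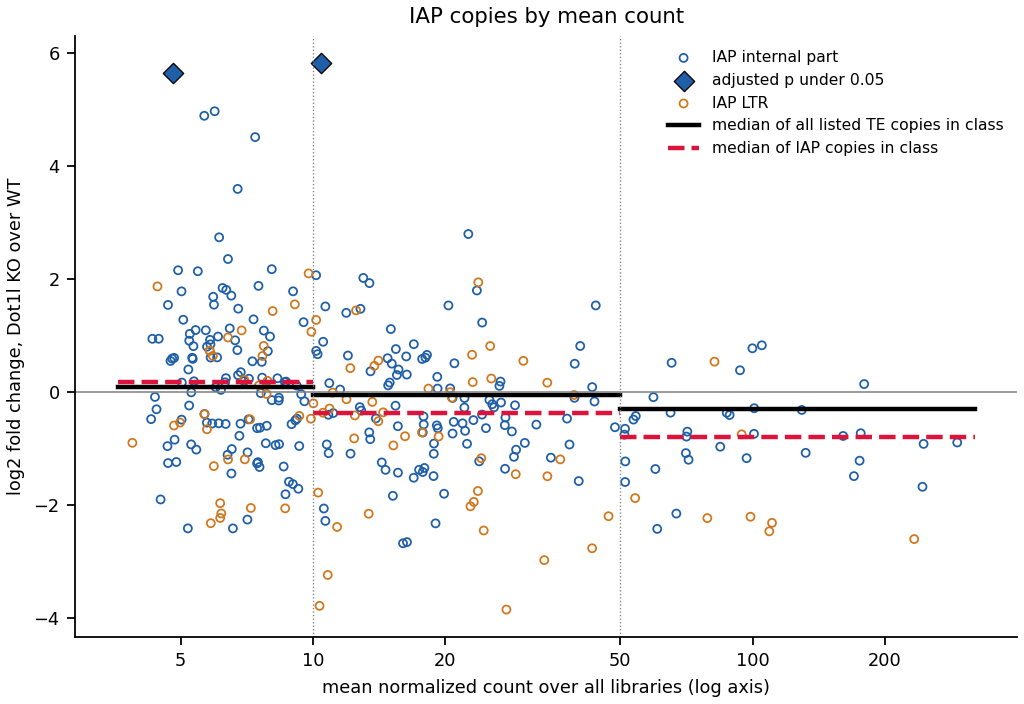
Log2 fold change of each listed IAP copy against its mean normalized count (log axis), internal parts blue and LTRs orange, diamonds for an adjusted p under 0.05; black lines give the median of all listed TE copies and dashed red lines that of IAP copies within 3 classes of mean count, divided at 10 and 50. At a mean of at least 50, 37 of 43 IAP copies lie below 0.

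The sign of the fold change went with abundance. Of the 150 IAP copies with a mean under 10, 46.7% lay below 0, close to the 46.2% of all copies in that class. Between 10 and 50 it was 64.5% of 155 copies beside 53.2%, and at 50 or more 86.0% of 43 copies beside 63.5%. The median in this last class was -0.80 for IAP copies and -0.31 for all copies. By kind, it was -0.76 for the 35 internal copies and -2.23 for the 8 LTR copies. All of these LTR copies but IAPLTR2a2_Mm_dup1355, at 0.53, belonged to IAPLTR1_Mm, so the LTR median is that of 1 element. None of the 43 IAP copies passed the DESeq2 test, where 1.36% of all copies in the class were called higher and 2.92% lower. Unadjusted, 9 of the 43 (20.9%) were lower and 0 higher, beside 8.67% and 4.68% of all copies in the class.

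Precision limited what could be called. The weakest call among all TE copies corresponds to a Wald statistic of 3.46 in size. At the median SE of IAP copies, 1.05, this is a log2 fold change of 3.64 in size, and at their lowest SE, 0.62, one of 2.13. Smaller differences were not detectable in single IAP copies at this precision. In the subfamily table the median SE of the IAP elements was 0.38 and the same reckoning gives 1.35.

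Listed copies with successive numbers may be pieces of 1 interrupted element, and the table does not say. There were 75 such pairs among 131 copies, 37 of them in IAPEz-int. In 48 of the 75 pairs both members had the same sign, and the median difference within a pair was 0.90 in size. Of all IAP copies 59.5% lay below 0, and their median SE was 1.05. Pairs of unrelated copies were not counted, so whether successive numbers belong together was not tested.

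**Figure D5:**
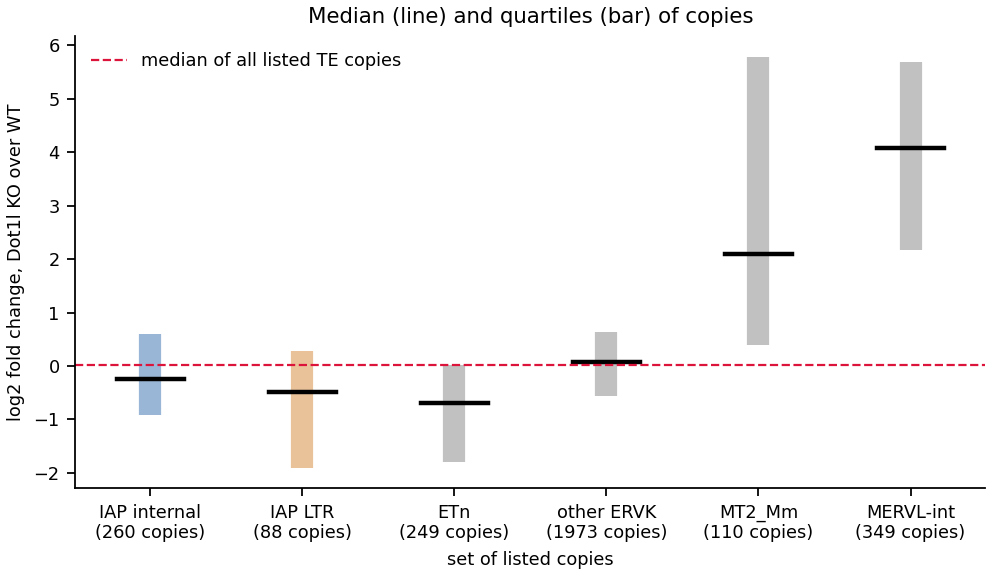
Median (black line) and quartiles (bar) of the log2 fold change over the listed copies of IAP internal parts, IAP LTRs and 4 other sets of endogenous retrovirus copies, with the median of all listed TE copies as a dashed red line. IAP internal parts at -0.25 and IAP LTRs at -0.48 lie between ETn (copies named ETn or MMETn) at -0.70 and other ERVK at 0.066. MERVL-int stands at 4.08, or 3.71 with copies whose implied WT level was taken as no reads set at their lower bound.

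Among related retroviruses, the early transposon (ETn) group is another young ERVK family. The 249 copies named ETn or MMETn had a median of -0.70, with 73.5% below 0, 0 called higher and 23 called lower (9.24%). Copies of ERVK elements with other names, IAP left out, were 1973 in number. They had a median of 0.066, with 16 called higher (0.811%) and 19 lower (0.963%). Over all listed copies 0.878% were called higher and 0.229% lower. Of the 349 MERVL-int copies 140 and of the 110 MT2_Mm copies 29 were called higher and 0 lower; 241 and 54 of them had a WT level below the lowest listed mean. The only subfamily called lower in the whole table was RLTRETN_Mm, the LTR of ETn, at -2.06 ± 0.48 (adjusted p = 0.00356, per the authors' deposited table). By its name it is outside the set of 249, and its copies, where of family ERVK, count among the 1973. How many of the 19 lower copies are of RLTRETN_Mm was not analysed here. Differences between these sets were not tested.

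A list of genes that act on repressive marks at IAPs was also counted. It holds the Tet dioxygenases, which act towards removing DNA methylation, beside the silencing factors. Of 55 listed symbols, 51 had a row. Tasor, without a row, is a later symbol of Fam208a, which is among the 51, so the 55 are not all different genes. Of the 51, 2 were called higher and 1 lower (3.92% and 1.96%, beside 5.34% and 1.25% of all genes). Their median log2 fold change was 0.0067, where all genes had -0.019. The central factors did not pass: the authors' deposited table has Setdb1, the H3K9 methyltransferase, at -0.13 ± 0.25, its recruiter Trim28 at -0.076 ± 0.35, the maintenance methyltransferase Dnmt1 at -0.027 ± 0.25 and its partner Uhrf1 at -0.11 ± 0.27. Higher were the de novo methyltransferase Dnmt3a (chromosome 12, 3806007 to 3914443), at 0.85 ± 0.24 with adjusted p = 0.00822, and the methylcytosine dioxygenase Tet3 (chromosome 6, 83362373 to 83459084), at 1.18 ± 0.34 (adjusted p = 0.0139, per the authors' deposited table). Their implied levels went from 4347 to 7833 and from 111.7 to 253.8.

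Chaf1b (chromosome 16, 93883901 to 93906115), a subunit of the chromatin assembly factor CAF-1, was the gene called lower, from 4526 in WT to 2372 in KO, at -0.93 ± 0.26 (adjusted p = 0.0105, per the authors' deposited table). The next smallest p-values did not pass. They belonged to the H3K9 methyltransferases Ehmt2 and Suv39h2, the H3.3 chaperone Daxx, the zinc finger gene Zfp989 and the chromatin remodeller Hells, which the authors' deposited table gives at -0.57 ± 0.31, -0.44 ± 0.27, -0.57 ± 0.35, 0.66 ± 0.42 and 0.52 ± 0.33, with adjusted p from 0.354 to 0.469. Zfp989 lies in a cluster of near-identical zinc finger genes, so its value is uncertain.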

How the data were processed

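Total RNA of 3 Dot1l KO and 3 WT samples was sequenced. Reads were aligned with HISAT2 2.1.0 to mm10, counted with featureCounts 2.0.0 and tested with DESeq2, per the submitters' processing notes. Strand, multi-mapping reads, size factors and formula: not given in the sources used here. The mean signal is the average of size-factor normalized counts, per the file headers. Effects are log2 fold changes with standard errors, as the authors' DESeq2 headers name them. The deposited score is a Wald statistic. The p-value is the Wald p with its Benjamini-Hochberg adjustment over each table, per the file headers. Means sum to 482719 over copies and 888505 over subfamilies; depth per sample is unknown, so no counting interval was computed. Of the listed copies, 51 had no p, 0 of them IAP; 2 subfamilies and 7 genes had none.

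The planned test of values per sample could not be run, so all calls are those of the authors' DESeq2 at an adjusted p under 0.05. Internal parts are elements whose name ends in -int or _I. Group levels were implied under equal group sizes; a level under 0.25 was taken as no reads, and the bound uses a floor of 3 reads, or 1 per library. Intervals are 95%, from the SE. Python 3.11.15, pandas 2.3.3 and scipy 1.17.1 were used, and the code was tested on simulated data. Members, gene lists and marker lists were chosen with earlier results of these data known. Named were all IAP elements, MERVL-int and MT2_Mm; up to 6 rises and 6 falls past the threshold, the 3 smallest adjusted p past it and the 5 highest means among internal copies and among LTR copies; and Dot1l, genes of the IAP silencing list past the threshold and the 5 with the next smallest p. Coordinates are from GENCODE M21. Alternatives were an adjusted p under 0.01, a log2 fold change of at least 1 in size, minimum means of 10 and 50, Bonferroni adjustment, weighting by SE in place of the median, and centring on the table median or within 20 bins of mean count.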

Additional observations from a re-analysis of the deposited data

How the results depend on the processing

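The IAP calls were few and rested on low counts. The 2 IAP copies called higher, both internal, became 1 at a mean count of at least 10, and 1 when fold changes were centred on the table median or within bins of mean count. They numbered 2 when a log2 fold change of at least 1 in size was also asked for, and became 0 at an adjusted p under 0.01, at a mean count of at least 50, and with Bonferroni adjustment. The call lost on centring was IAPLTR3-int_dup145, with adjusted p = 0.0506 on the table median and 0.0751 within bins. The rise of IAPEy-int among subfamilies was called under each of these 7 alternatives, and 0 IAP copies or subfamilies were called lower under any of them. The median of LTR copies moved from -0.48 to -2.23 at a mean count of at least 50, where all LTR copies but IAPLTR2a2_Mm_dup1355 were IAPLTR1_Mm. Over the other alternatives the medians of IAP copies, internal copies and LTR copies kept their sign. Among elements that did not pass, IAP1-MM_I-int turned to 0.010 on the table median and 0.019 within bins, and IAPA_MM-int to -0.12 within bins. No paired analysis was possible because the tables have no values per sample; for the same reason leaving out a replicate and other normalizations were not run.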
